A study of Mus musculus with 12 samples.

Results

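H2A.Z peaks whose middle lay 200 to 500 bp upstream of a transcription start site (TSS) were collected from the peak lists of 4 conditions in mouse nucleus accumbens. Every peak on chromosomes 1 to 19 with a deposited distance from −500 to −200 bp was taken, where a negative distance is upstream of the assigned TSS. The rule returned 1181 of 24190 peaks for saline then saline (SS), 1214 of 22584 for saline then cocaine (SC, labelled acute), 1292 of 6238 for cocaine then saline (CS, labelled withdrawal) and 937 of 4670 for cocaine then cocaine (CC, labelled challenge). In all 4 lists together these were 4624 of 57682 peaks. The peaks named 3251 genes. Each condition comprised 3 samples of nucleus accumbens chromatin precipitated with an antibody against H2A.Z, and 1 annotated peak list per condition was available. Dose, interval between injections, sex, age, strain and batch are not in the labels, and the total H3 libraries were not analysed here. A list holds no values per sample, so no spread between samples could be computed, no test between conditions was possible, and each interval below is a 95% exact binomial interval that covers the counting of peaks or genes only.

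The histone variant H2A.Z takes the place of canonical H2A in selected nucleosomes. At active promoters it is known for marking the nucleosomes on either side of a nucleosome-depleted stretch, one upstream of the start site and one just inside the transcribed region. The SRCAP and Tip60 complexes place it, and the chaperone Anp32e removes it. In neurons its turnover has been studied in relation to the induction of activity-dependent genes.

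Promoters with the upstream peak on one side of the TSS and a second peak on the other side in both CS and CC are described first. If such peaks are the 2 nucleosomes named above was not tested. Such a pair was found at 65 of the 1263 genes with an upstream peak in CS and 40 of 919 in CC, and 10 genes had one in both. Of the 10, 5 had clone names: Gm10717, Gm10720, Gm21738, Gm42418 and 6820431F20Rik. Some of these were unlike the rest, with a downstream Gm21738 peak of 1962 bp in CS and upstream Gm42418 folds of 1.94 in CS and 1.83 in CC. The 5 with a gene name were Zfp442, Ubxn8, Thada, Ccnf and Gpatch3. The 250 bases just before the RefSeq TSS of 4 of them are printed because they are the stretch between the TSS and the upstream peak, or the part that this peak enters. They run 5′ to 3′ on the transcribed strand and are credited to RefSeq, assembly GRCm38.p6, whose coordinates are those of mm10. Capitals mark CCAAT and GGGCGG, searched on both strands, so ATTGG and CCGCCC are capitals too, and no 2 matches overlapped in these sequences. Zfp442 lies at chr2:150451502-150451751 on the minus strand, Thada at chr17:84466209-84466458 on the minus strand, Ccnf at chr17:24251410-24251659 on the minus strand and Gpatch3 at chr4:133574495-133574744 on the plus strand.
Zfp442: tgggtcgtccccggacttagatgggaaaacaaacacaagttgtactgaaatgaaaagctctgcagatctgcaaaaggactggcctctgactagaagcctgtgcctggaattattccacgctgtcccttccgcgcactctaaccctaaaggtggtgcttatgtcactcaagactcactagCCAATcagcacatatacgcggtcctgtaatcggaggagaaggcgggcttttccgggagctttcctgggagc
Thada: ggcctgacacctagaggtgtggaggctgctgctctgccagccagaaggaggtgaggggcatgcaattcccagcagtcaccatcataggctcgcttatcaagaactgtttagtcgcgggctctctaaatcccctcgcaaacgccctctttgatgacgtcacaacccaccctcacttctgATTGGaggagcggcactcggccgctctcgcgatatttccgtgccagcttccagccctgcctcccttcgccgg
Ccnf: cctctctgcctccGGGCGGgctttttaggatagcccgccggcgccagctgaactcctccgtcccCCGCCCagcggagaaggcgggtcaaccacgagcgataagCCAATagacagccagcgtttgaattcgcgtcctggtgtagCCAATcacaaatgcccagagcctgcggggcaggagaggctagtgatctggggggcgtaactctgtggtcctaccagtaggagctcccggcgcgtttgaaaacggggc
Gpatch3: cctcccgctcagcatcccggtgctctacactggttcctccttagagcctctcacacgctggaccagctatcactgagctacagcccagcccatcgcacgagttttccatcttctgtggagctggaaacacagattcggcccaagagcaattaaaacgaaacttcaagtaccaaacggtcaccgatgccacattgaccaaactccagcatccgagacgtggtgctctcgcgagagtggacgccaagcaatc
CCAAT occurred in 33.8% and GGGCGG in 32.7% of the 32851 RefSeq promoter sequences of the same length. Ccnf held 2 CCAAT and 2 GGGCGG matches, Zfp442 and Thada 1 CCAAT match each, and Gpatch3 neither motif. All 250 bases of each stretch lay inside an SS peak. In CS, peaks held 28 of the 250 bases at Zfp442, 57 at Thada, 0 at Ccnf and 177 at Gpatch3, and in CC they held 12, 0, 0 and 142. The Ccnf stretch, with its 4 motif matches, was therefore outside every CS and CC peak and inside the SS peak. A count of motifs over all upstream peaks was not made, because too few members matched a RefSeq promoter within 50 bp (42.7 and 43.4% in SS and SC, 60.4 and 58.6% in CS and CC).

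At Zfp442, a zinc finger gene, SS had a single peak of 1230 bp across the TSS. CS had a peak of 177 bp with its middle 326 bp upstream and another of 148 bp at 186 bp downstream. CC had peaks of 141 bp at 324 bp upstream and 158 bp at 117 bp downstream. The upstream peaks of CS and CC thus lay at nearly the same place. At Ccnf, which encodes cyclin F, a substrate receptor of the SCF ubiquitin ligase, SS had a single peak of 1380 bp. Ccnf was divided in SC as well, with peaks of 520 bp at 425 bp upstream and 475 bp at 261 bp downstream. The CS upstream peak of Ccnf was 327 bp wide at 424 bp upstream, and the CC one 208 bp wide at 431 bp upstream. At Ubxn8, an endoplasmic reticulum cofactor of the p97 ATPase, the SS peak was 1380 bp wide and the upstream peaks lay at 224 bp in CS and 244 bp in CC. Thada carried 2 upstream peaks in CS, at 266 and 490 bp, and a single wider one of 307 bp in CC at 440 bp. Gpatch3 carried peaks at 410 and 159 bp upstream in CS and a single peak of 263 bp at 241 bp in CC. In all 5 genes the SS peak was single, 1204 to 1380 bp wide, and reached past both CS flanks.

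**Figure D1:**
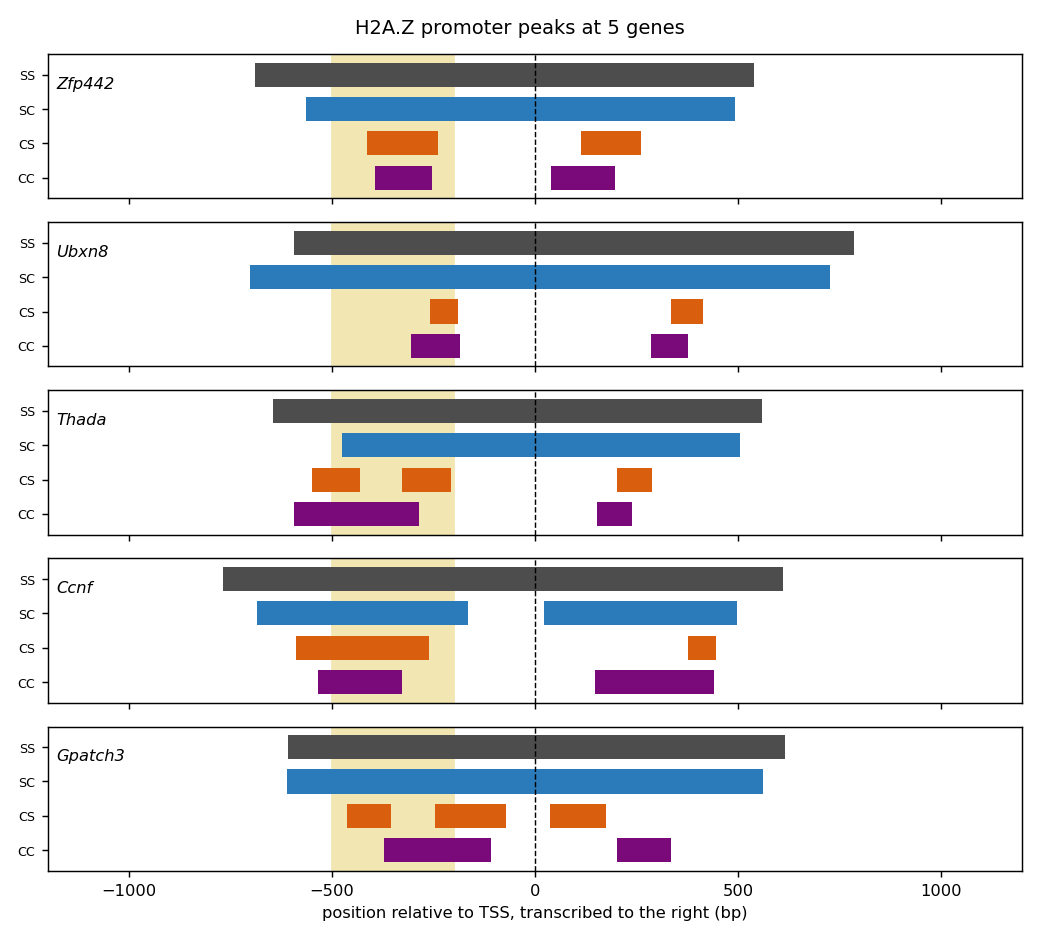
Promoter peaks of the 4 lists at Zfp442, Ubxn8, Thada, Ccnf and Gpatch3, drawn as bars against the position relative to the TSS in bp, with transcription to the right and the window 200 to 500 bp upstream shaded. One SS bar of 1204 to 1380 bp spans the TSS at each gene, while CS and CC have narrower bars on each side of it.

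The window held a larger part of the promoter peaks in CS and CC than in SS and SC. A promoter peak was any peak with its middle within 1000 bp of the TSS. Upstream peaks were 7.86% of the SS promoter peaks (interval 7.43 to 8.30%) and 8.51% of those in SC (8.06 to 8.98%). In CS they were 25.4% (24.2 to 26.6%), and in CC 24.2% (22.8 to 25.5%). The intervals of CS and CC did not overlap those of SS and SC. On single chromosomes the share ran from 5.90 to 11% in SS and from 5.81 to 11% in SC, against 20.1 to 30.7% in CS and 20.4 to 31.5% in CC, so every chromosome of CS and CC lay above every chromosome of SS and SC. The number of upstream peaks differed far less than the lists did, since SS had 15035 promoter peaks, SC 14268, CS 5091 and CC 3878. With every list kept to its 4670 strongest peaks by fold, the shares were 3.42% for SS and 3.26% for SC, and with a window of 250 to 450 bp they were 4.86 and 5.36%.

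The shape of the distances differed in the same way. In SS, 3279 peak middles fell in the 100 bp before the TSS and 3764 in the 100 bp after it, against 340 in the bin from 400 to 300 bp upstream. In CS the upstream window formed a mode of its own, with 448 middles from 400 to 300 bp, 553 from 300 to 200 bp, 427 from 200 to 100 bp, 370 in the last 100 bp before the TSS and 646 in the first 100 bp after it. In CC the low stretch ran over the last 200 bp before the TSS, with 264 and 266 middles per 100 bp. In SS and SC these counts rose up to the TSS and were highest in the first 100 bp after it. Within the window, the share 200 to 300 bp from the TSS came to 44.5, 39.4, 43.0 and 36.2% for SS, SC, CS and CC, and the share at 301 to 400 bp to 28.8, 29.9, 34.7 and 39.2%.

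**Figure D2:**
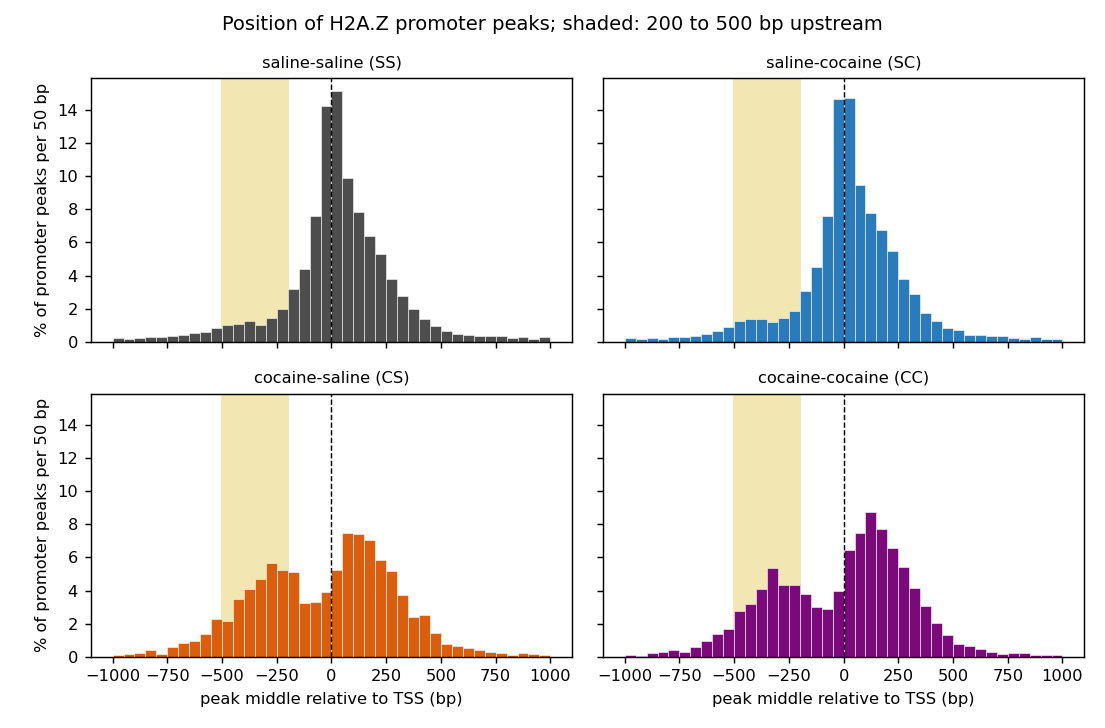
Percent of promoter peaks per 50 bp bin (vertical axis) against the distance of the peak middle from the TSS in bp (horizontal axis), 1 panel per list, with the window 200 to 500 bp upstream shaded. SS and SC have 1 mode at the TSS; CS and CC have 1 mode in the shaded window and another downstream, with a dip in between.

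Upstream peaks in SS and SC were wide and in CS and CC narrow. The median width was 692 bp in SS (quartiles 460 and 1182) and 646 bp in SC (452 and 1042). It was 116 bp in CS (86 and 164), and for CC 112 bp (82 and 157). The same gap between lists held for peaks within 200 bp of the TSS, with medians of 1043, 989, 110 and 107 bp, and for peaks 100 to 300 bp downstream, with 847, 768, 113.5 and 108 bp. The upstream peaks were therefore narrower than the TSS-centred peaks of their own list in SS and SC, and close to them in width in CS and CC. The minimum width in the list, 69 bp in CS and 67 bp in CC, was the width of 132 CS and 96 CC upstream peaks. All peaks of a list together covered 19.4 Mb for SS and 17.6 Mb for SC, against 0.80 and 0.581 Mb for CS and CC. Reads per sample were not used here and the settings of each peak call are unknown, so list length, peak width and condition cannot be told apart.

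**Figure D3:**
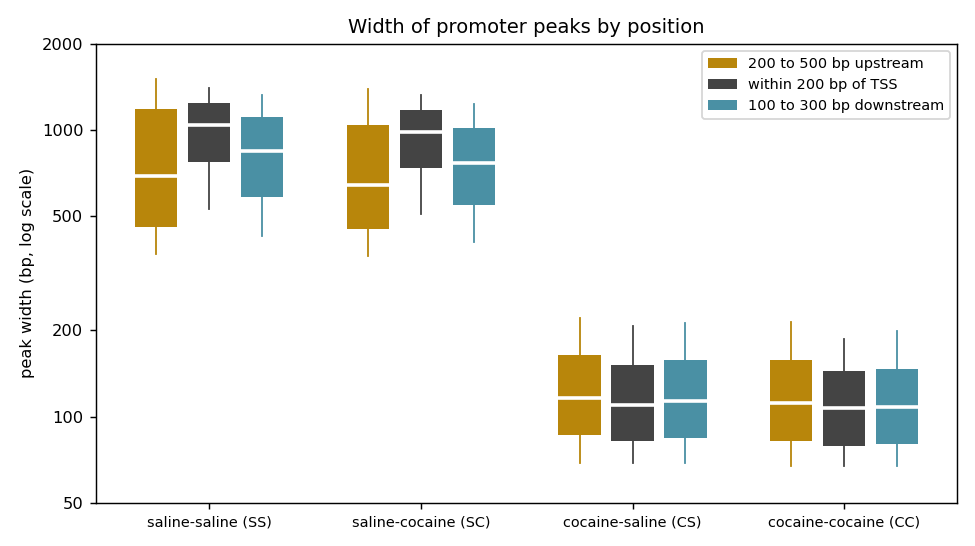
Width of promoter peaks in bp on a log axis for peaks 200 to 500 bp upstream, within 200 bp of the TSS and 100 to 300 bp downstream, in each list (boxes are quartiles with the median as a line, whiskers the 10th and 90th percentiles). Upstream medians are 692 and 646 bp in SS and SC and 116 and 112 bp in CS and CC.

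Strength was read within each list from the authors' fold enrichment, a ratio of signal over background, and is not compared between lists. In SS the upstream peaks had a median of 4.26 against 5.80 for the TSS-centred peaks, and in SC 4.49 against 6.85. In CS both medians were 4.68, and in CC they were 4.87 and 4.74. Upstream peaks thus had lower folds than TSS-centred peaks in SS and SC and not in CS and CC. A q-value of 1e-05 or below was reached by 15.9% of CS upstream peaks (14.0 to 18.1%) against 12.5% of TSS-centred ones (11.1 to 14.0%), and by 16.4% against 13.0% in CC. Nearly all SS and SC upstream peaks reached it (98.6 and 99.3%). Fold values repeated in CS, where 502 distinct values served 1292 peaks and 100 peaks shared the value 4.68, so many CS upstream peaks cannot be ranked against each other. In SS, 1031 distinct values served 1181 peaks. Among the 4670 strongest peaks of each list, the upstream peaks of SS and SC had median folds of 9.24 and 11.6, and those of SS a median width of 1137 bp.

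SS upstream peaks were of 2 kinds. Of the 1181, 617 (52.2%) spanned their own TSS, with a median width of 1165 bp and a median fold of 5.15. The other 564 ended before the TSS, with a median width of 452.5 bp and a median fold of 3.58. In SC, 554 of 1214 (45.6%) spanned the TSS. A middle 200 bp away needs a width above 400 bp to reach the TSS, and the widest upstream peaks were 492 bp in CS and 475 bp in CC. None of the 1292 CS and none of the 937 CC upstream peaks spanned its TSS, which allows shares of up to 0.285% and 0.393%. The wide SS kind lay close to the near edge of the window: 81.0% of the SS peaks 200 to 300 bp upstream spanned the TSS, against 16.1% of those 401 to 500 bp upstream. At the edges themselves, the SS peak of Ism2 at 200 bp was 1140 bp wide and that of Gnpnat1 just outside at 199 bp was 1249 bp wide. At the far edge the SS peak of Kcnt2 at 500 bp was 431 bp and that of Arhgap12 at 501 bp was 684 bp wide. In CS the peak of Tmem136 at 200 bp was 178 bp and that of Sars at 199 bp was 87 bp wide, and Hivep3 at 500 bp and Phb at 501 bp had widths of 136 and 271 bp.

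Few upstream peaks had a partner downstream that the authors assigned to the same TSS. SS had 83 of 1181 (7.03%, 5.64 to 8.64%) and SC 93 of 1214 (7.66%, 6.23 to 9.30%). CS had 67 of 1292 (5.19%, 4.04 to 6.54%) and CC 40 of 937 (4.27%, 3.07 to 5.77%). Of peaks 200 to 500 bp downstream, 5.27, 5.39, 6.04 and 4.45% (SS, SC, CS and CC) had a partner upstream of the same TSS. Of all TSSs with a promoter peak, 1.66% carried 2 or more in SS and 1.52% in SC, and the shares were 7.79 and 6.33% for CS and CC. These last shares count TSSs with peaks on any side and are no like-for-like reference. The number of upstream peaks with a partner rested on the assignment, since the authors give each peak to 1 transcript. With a downstream peak of the same gene name at any TSS it was 34.4, 35.4, 17.8 and 16.2%. With any peak middle within 1000 bp downstream of the TSS, whatever its gene, SS had 381 (32.3%), SC 425 (35.0%), CS 245 (19%) and CC 157 (16.8%), against 12.9, 13.2, 19 and 16.2% of all promoter peaks upstream of a TSS. CS and CC were at that background, and SS and SC above it. That background is no like-for-like reference for SS and SC, where 99.5 and 99.4% of the peaks within 200 bp of the TSS span it and so leave little room for a second middle downstream. With the same-TSS rule, 0 of 150 upstream peaks in SS and 0 of 142 in SC had a partner among the 4670 strongest peaks of each list, which allows up to 2.43 and 2.56%, and 2.43% of CS upstream peaks had one among peaks of −log10 q of at least 5.

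Peaks that span the TSS already fill its downstream side, so the number with a separate downstream peak is given for each kind. Of the 564 SS peaks that ended before the TSS, 333 (59.0%, 54.9 to 63.1%) had a downstream peak by position, against 48 of the 617 (7.78%, 5.79 to 10.2%) that spanned it and ended a median of 304 bp past it. SC gave 58.9% and 6.50%. This split follows in large part from the geometry of the peaks. Where a same-TSS pair existed, its middles were 776 and 726 bp apart at the median in SS and SC, and 564 and 576.5 bp apart in CS and CC. The median distance between the facing edges of the paired peaks was 202, 192, 439 and 424 bp. This stretch was not always free of peaks. In CS another peak lay in it at Gpatch3 and, for the upstream peak farther from the TSS, at Thada. The downstream member had the higher fold in 57 of 83 SS pairs, 63 of 93 SC pairs, 40 of 67 CS pairs and 20 of 40 CC pairs. Pairs in SS included Kifap3, a kinesin-associated protein, with peaks of fold 5.42 at 478 bp upstream and 6.77 at 409 bp downstream. They also included Sertad2, with 3.46 upstream and 9.0 downstream. Both genes were picked after their values were seen. Seen from the genes, the upstream peak was the gene's sole promoter peak for 59.1 and 58.3% of SS and SC genes and for 75.1 and 78.5% of CS and CC genes.

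Nearly all CS and CC upstream peaks lay inside an SS peak, and that SS peak was usually centred on the TSS. The middle fell in an SS peak for 1243 of 1292 CS peaks (96.2%, 95 to 97.2%) and 899 of 937 CC peaks (95.9%, 94.5 to 97.1%). For all promoter peaks the shares were 96.1% in CS and 96.6% in CC, so upstream peaks were covered as often as the rest. In SC, 1035 of 1214 (85.3%, 83.1 to 87.2%) were covered, below the 92.7% of all SC promoter peaks, and 1071 (88.2%) overlapped an SS peak at all, against 94.3%. The covering SS peak had the same gene in 97.2% of CS, 96.6% of CC and 98.9% of SC cases. With only the 4670 strongest SS peaks to cover them, the covered shares were 31.2% for CS and 29.1% for CC, and 26.8% of SC upstream peaks lay in an SS peak over their whole width.

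For CS the covering SS peak had a median width of 1205 bp and its middle at −31 bp, and for CC 1223 bp and −31.5 bp. It reached 626 bp upstream and 570 bp downstream of the TSS at the median for CS, and spanned the TSS in 91.2% of cases (90.4% for CC). The CS peak sat 25.2% of the way along it from its upstream end, and 71.4% of CS upstream peaks fell in the most upstream of 3 equal parts (72.4% for CC). This position follows in large part from the rule, which takes middles upstream of a TSS that the SS peak usually spans. Of covered CS peaks 200 to 500 bp downstream, 60.8% fell in the most downstream part (61.0% for CC). The SS peak behind a CS upstream peak was itself within 200 bp of the TSS in 82.1% of cases and itself 200 to 500 bp upstream in 14.2% (84.0 and 11.3% for CC). For all covered promoter peaks these shares were 78.7 and 6.85% in CS and 78.8 and 6.01% in CC. Their SS peak spanned the TSS in 92.4% (CS) and 93.3% (CC), near the shares of the upstream peaks. The SS peak behind an upstream peak also held a downstream CS peak in 213 of 1243 cases (17.1%), and a downstream CC peak in 15.5%. SC differed from both: the covering SS peak was 995 bp wide with its middle at −274 bp, and was itself an upstream peak in 57.2% of cases.

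**Figure D4:**
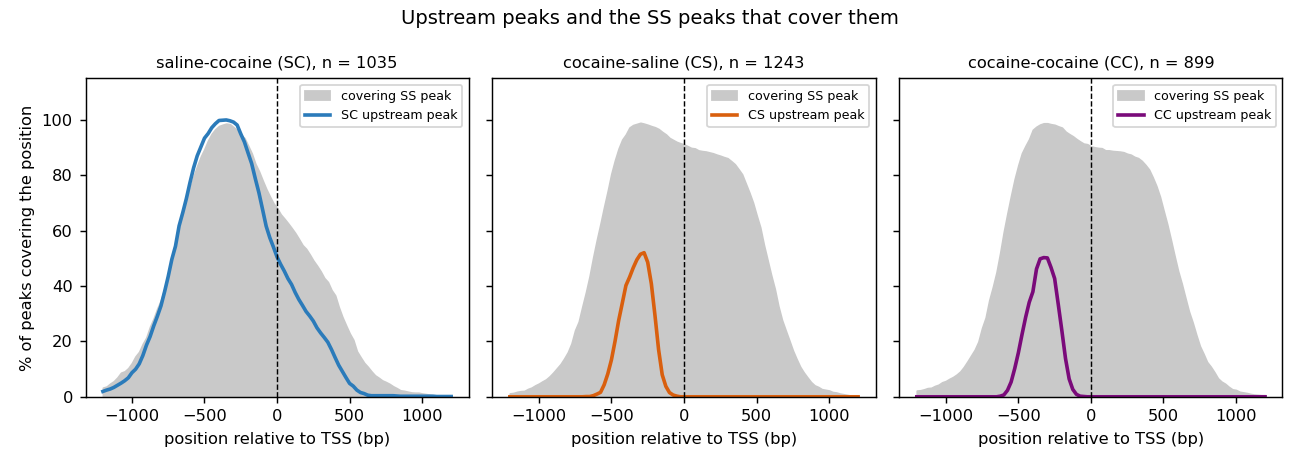
Percent of peaks that cover each position relative to the TSS (bp), for upstream peaks of SC, CS and CC with their middle in an SS peak (line) and for those SS peaks (grey area). At the TSS the grey area stands at 91.2% for CS and 90.4% for CC while their upstream-peak lines are at 0; at −300 bp the CS line stands at 51.5%.

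Some upstream peaks had no SS peak under them. SC had 143 without any overlap, CS 29 and CC 29. Of the 29 in CS, 24 belonged to genes with an SS promoter peak elsewhere, and of the 29 in CC, 21. Among genes with a gene name, the strongest in CS was at Mtor, the kinase of the TORC1 and TORC2 complexes. This peak was 127 bp wide at 478 bp upstream with a fold of 5.58, while the SS peak of Mtor, 488 bp wide, lay 163 bp downstream. Rab11b, a GTPase of recycling endosomes, had a CS peak at 386 bp upstream, an SC peak at 332 bp upstream and its SS peak 132 bp downstream. Narfl, Yif1a and Zfp638 followed in CS, each with a fold of 5.02. In CC the strongest with a gene name were Zcchc8, Pigl, Impad1, Tgds and Zyg11b, with folds of 4.8 to 5.08. Pigl, an enzyme of glycosylphosphatidylinositol synthesis, had no SS or SC promoter peak, nor did Tgds.

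Read the other way, SS upstream peaks were overlapped by a CS peak in 295 of 1181 cases (25%) and by a CC peak in 205 (17.4%), against 27.7 and 21.8% of all SS promoter peaks. SC overlapped 1004 (85.0%, background 89.2%). The shares were higher for the kind that spanned the TSS than for the kind that ended before it: 33.2 against 16.0% in CS, 24.1 against 9.93% in CC and 94.2 against 75% in SC. The spanning kind was also the wider one, 1165 against 452.5 bp at the median, and a wider peak has more length to be overlapped.

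Upstream peaks of CS and CC overlapped each other in part. A CC peak of any position overlapped 335 of the 1292 CS upstream peaks (25.9%, 23.6 to 28.4%), against 23% of all CS promoter peaks. A CS peak overlapped 348 of the 937 CC upstream peaks (37.1%, 34.0 to 40.3%), against 30.1% of all CC promoter peaks. For peaks within 200 bp of the TSS the shares were 21.6 and 27.1%. Where peaks overlapped, their middles were 56 bp apart at the median seen from CS and 59 bp seen from CC. No spread between samples stands behind these shares.

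By gene, an upstream peak was carried by 1170 of 13281 SS genes with a promoter peak (8.81%), 1193 of 12583 SC genes (9.48%), 1263 of 4311 CS genes (29.3%) and 919 of 3389 CC genes (27.1%). CS and CC shared 338 genes, 26.8% of the CS and 36.8% of the CC genes. Among the 1775 genes with a promoter peak in both lists, 573 had an upstream peak in CS and 562 in CC, and the shared 338 were 59.0 and 60.1% of these, against 31.7% with a CC and 32.3% with a CS upstream peak among all 1775. Among peaks of −log10 q of at least 5, the shared genes were 12.8% of CS and 17.1% of CC. SS and SC shared 589 genes, 50.3% of SS and 49.4% of SC. SS shared 170 genes with CS and 105 with CC. Of the 340 SS upstream genes with a CS promoter peak these were 50% (44.6 to 55.4%), against 31.4% with a CS upstream peak among all 3908 genes with a promoter peak in both lists. For CC they were 40.1% of 262 (34.1 to 46.3%), against 28.6% of 3080. The upstream peak was found in 1 list alone at 475 of 1170 genes for SS, 469 of 1193 for SC, 732 of 1263 for CS and 482 of 919 for CC. This concerns the position only, since most upstream genes had a promoter peak elsewhere. An SS promoter peak was present at 93.8% of all SC, 97.1% of all CS and 96.0% of all CC upstream genes, and an SC one at 91.7% of those in SS. Protein-coding genes made up 83.8 and 84.8% of the SS and SC upstream peaks and 95.3 and 95.7% of those in CS and CC. For peaks 100 to 300 bp downstream the share was 91.2, 90.7, 87.3 and 87.9% (SS, SC, CS and CC). Over all promoter peaks it was 89.6, 89.5, 90.1 and 90.8%, so upstream peaks lay below it in SS and SC and above it in CS and CC.

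In 18 genes all 4 lists had an upstream peak. Usp45, a deubiquitinase, had its peaks at 367, 324, 304 and 378 bp in SS, SC, CS and CC, with widths of 1046, 906, 245 and 67 bp. Mdn1, the midasin ATPase of large ribosomal subunit assembly, had them at 296, 318, 284 and 287 bp. Its SS peak was 1871 bp wide, and both CS and CC added a downstream peak, at 111 and 135 bp. Arnt, the partner of the aryl hydrocarbon receptor and of HIF-1 alpha, had peaks at 239, 221, 312 and 384 bp. Taf7 of the TFIID complex, Gtpbp4 of ribosome assembly, Ube4a, a ubiquitin ligase, Aptx, a DNA strand-break repair enzyme, Zfp472, Zfp994 and Sfi1 were the others named by the rule. The 4 upstream peaks lay between 284 and 318 bp at Mdn1 and between 243 bp (CS) and 498 bp (SS) at Aptx.

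Among SS upstream peaks of genes with a gene name, the strongest lay 226 bp before Mir203, a microRNA gene. It was 916 bp wide with a fold of 13.5, while the highest fold of any SS upstream peak was 15.4. Prima1, which anchors acetylcholinesterase to neuronal membranes, followed with a fold of 11.6 at 324 bp. Ice1, Baiap2l2, St8sia6, Tmem62, Sptb and Pdzrn3 had folds of 11.4 to 11.6. In SC the strongest with a gene name lay at Cftr, a chloride channel, 224 bp upstream with a fold of 16.9. The highest fold of any SC upstream peak was 20.8. Fbxl7, St8sia6, Tesmin, the lymphatic growth factor gene Vegfc, Mir203, Trappc8 and the cell-cycle repressor gene E2f7 followed with 14.5 to 16.6. None of the 8 SS genes had an upstream peak in CC, and among them Mir203 alone had one in CS, at 381 bp and with a fold of 5.02. Of all 1170 SS upstream genes, 8.97% had an upstream peak in CC and 14.5% in CS, so 8 genes are too few to differ from the rest. MicroRNA genes took 12 SS, 14 SC, 3 CS and 4 CC upstream peaks. In the same order, the full sets of 15035, 14268, 5091 and 3878 promoter peaks included 78, 86, 22 and 22 at microRNA genes. The upstream counts are small, and a difference between lists was not tested.

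In CS and CC the strongest upstream peak was the same, at Sfi1, a centrosomal protein gene. It lay 254 bp upstream with a fold of 14.9 in CS and 258 bp upstream with 12.6 in CC, and 250 and 253 bp upstream in SS and SC. Sfi1 also carried the most promoter peaks of any gene with a gene name in both lists, 6 in CS and 8 in CC. These lay at several start sites, with folds from 1.96 to 14.9 in CS and from 1.75 to 12.6 in CC, so the locus is unusual. Why it is so was not tested. Next in CS among genes with a gene name came Rnf14 and Gtf3a. Gtf3a, which encodes TFIIIA of 5S ribosomal RNA transcription, had a CS peak of 146 bp at 381 bp upstream with a fold of 7.37, an SS peak of 1084 bp at −93 bp and no promoter peak in CC. Arnt, Fahd2a, Drg2, Lypla2 and Usp45 had CS folds of 6.69 to 7.0. In CC, Zc3h15, Bphl, Ipo9, Trmu, Pofut2, Tmem106c and Chchd5 had folds of 7.14 to 7.42. Ipo9, a nuclear import receptor, had no CS promoter peak, while Bphl had CS and CC upstream peaks at 279 and 223 bp.

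In CS and CC the upstream share of several housekeeping gene groups stood above that of all genes. Cytosolic ribosomal protein genes stood above it in SS and SC too. Among cytosolic ribosomal protein genes with a promoter peak, 15 of 24 had an upstream one in CS (62.5%, 40.6 to 81.2%) and 8 of 15 in CC (53.3%, 26.6 to 78.7%), against 29.3 and 27.1% of all genes. The median fold of these upstream peaks was 4.82 in CS and 4.89 in CC, beside 4.68 and 4.87 for all upstream peaks. Rps9 of the small subunit had a CS peak of 281 bp at 357 bp and a CC peak of 129 bp at 320 bp, inside an SS peak of 1483 bp. Splicing factors gave 15 of 24 in CS and 5 of 10 in CC, with Srsf4, an SR protein, at 420 bp and Prpf19, a spliceosomal ubiquitin ligase, at 310 bp in CS. The CC interval of the splicing factors (18.7 to 81.3%) and that of the cytosolic ribosomal protein genes held the share of all genes. Respiratory chain genes gave 15 of 26 and 10 of 16, among them Atp5o of ATP synthase at 243 bp and Cox5a of cytochrome c oxidase at 361 bp in CS. Mitochondrial ribosomal protein genes gave 13 of 26 and 9 of 16. Mrps10, the strongest of these in CS, had peaks at 376 bp in CS and 299 bp in CC.

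Zfp zinc finger genes, the largest group, had an upstream peak in 59 of 151 cases in CS (39.1%, 31.2 to 47.3%) and 51 of 128 in CC (39.8%, 31.3 to 48.9%), both intervals above the share of all genes. Proteasome subunits gave 8 of 19 and 6 of 12. Psma4 and Psma6 of the core particle had CS peaks at 354 and 346 bp and CC peaks at 260 and 335 bp. Genes of RNA polymerase, TFIID and Mediator gave 12 of 29 and 8 of 20, with Taf7 and Med6 the strongest in CS. DNA replication and repair genes gave 8 of 32 and 6 of 26, transfer RNA synthetases 4 of 16 and 4 of 10, and Rab and Arf GTPases 4 of 27 and 3 of 13. These were below the share of all genes, apart from the synthetases in CC. In SS and SC the same groups ran from 3.33 to 19.4%, with cytosolic ribosomal protein genes highest at 12 of 62 and 12 of 63. The intervals of these genes, 10.4 to 31.4% in SS and 10.2 to 30.9% in SC, lay above the 8.81 and 9.48% of all genes.

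**Figure D5:**
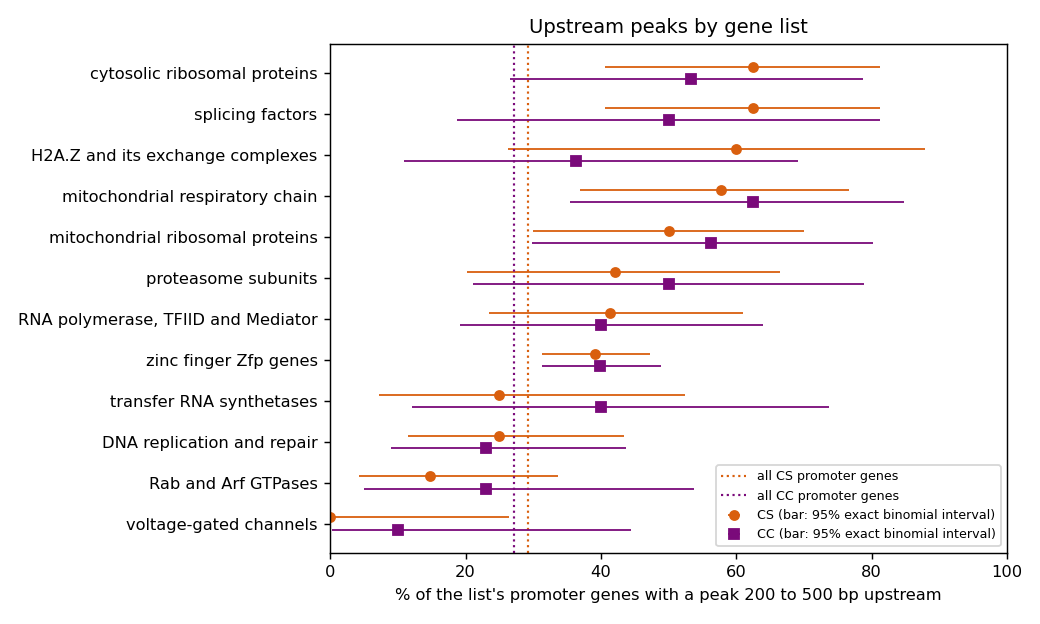
Percent of the genes with a promoter peak that have one 200 to 500 bp upstream, by gene list, for CS (circles) and CC (squares) with 95% exact binomial intervals as bars and the share of all genes as dotted lines. Cytosolic ribosomal protein, splicing factor, respiratory chain and Zfp genes lie above the lines with CS intervals that exclude the CS line; voltage-gated channels lie at 0 of 12 in CS.

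The machinery of H2A.Z itself was among the groups. Of its genes with a promoter peak, 6 of 10 had an upstream peak in CS and 4 of 11 in CC, against 1 of 23 in SS and 2 of 23 in SC. The CS genes were Kat5, the acetyltransferase of the Tip60 complex, Morf4l1, Ing3 and Ruvbl1 of the same complex, Srcap, the ATPase that places H2A.Z, and Anp32e, the chaperone that removes it. The CC genes were Srcap, Epc2, Actr6 and Dmap1. Over all genes the shares were 29.3% (CS), 27.1% (CC), 8.81% (SS) and 9.48% (SC). Kat5 had its CS peak at 346 bp upstream with a fold of 6.36, and in CC peaks at 69 and 505 bp upstream, the second just outside the window. The intervals, 26.2 to 87.8% in CS and 10.9 to 69.2% in CC, held the share of all genes, so the group was not set apart from them.

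Few genes of neuronal signalling had a promoter peak in CS and CC, so their upstream shares are read for SS and SC, where all genes had 8.81 and 9.48%. Voltage-gated channel genes gave 15 of 98 in SS (15.3%, 8.83 to 24%), 12 of 92 in SC (13.0%, 6.93 to 21.7%), 0 of 12 in CS (up to 26.5%) and 1 of 10 in CC, Kcnn1. Kcnb2 and Kcnd2, potassium channel genes, had SS peaks of 1138 and 998 bp at 369 and 498 bp. Activity-induced genes gave 4 of 19 in SS (Egr1, Nr4a1, Fosl2 and Dusp1) and 7 of 17 in SC (these 4 with Klf4, Btg2 and Fosb), against 0 of 1 in CS and 0 of 2 in CC. The SC interval, 18.4 to 67.1%, lay above the share of all genes, and the SS interval, 6.05 to 45.6%, held it. Egr1, an immediate early transcription factor gene, had its SS peak at 284 bp and its SC peak at 288 bp. Glutamate and GABA receptor genes gave 6 of 33, 2 of 32, 1 of 3 (Gria4) and 0 of 1, and the SC share (6.25%) was below that of all genes. Developmental transcription factor genes gave 2 of 40 in SS (Pax2 and Tbx6) and 1 of 35 in SC.

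Markers of the medium spiny neurons of the nucleus accumbens were counted too, and the intervals of these counts hold the share of all genes. Where a peak lies within a promoter does not tell the cell type, so the counts are no check of the tissue. Pde10a, a phosphodiesterase of these neurons, and Bcl11b, their transcription factor, had SS peaks at 313 and 308 bp, and Foxp1 made the count 3 of 10. SC gave 3 of 11. Of the markers of the D1 type, Isl1 had an SS peak at 252 bp (1 of 7), and of the D2 type Grik3 had one at 232 bp (1 of 5). CS had no promoter peak at any marker of these neurons, and CC had 2 of the shared markers with none upstream. Of the other cell types, CS had a promoter peak at 2 endothelial markers and at no marker of astrocytes, oligodendrocytes or microglia. CC had one at 2 oligodendrocyte markers and at no marker of astrocytes, endothelium or microglia. No list had an upstream peak at a marker of astrocytes, oligodendrocytes, endothelium or microglia. In SS these were 0 of 5, 0 of 4 and 0 of 4 genes with a promoter peak, which allow up to 52.2, 60.2 and 60.2%, and no microglial marker had a promoter peak.

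Divergent neighbours were counted from the start sites of RefSeq. A TSS of another gene on the opposite strand lay within 1000 bp upstream of the assigned TSS in 61 of 1150 SS cases (5.30%, 4.08 to 6.76%), 60 of 1172 in SC (5.12%), 67 of 1254 in CS (5.34%, 4.16 to 6.74%) and 40 of 909 in CC (4.40%). The background over all promoter peaks was 12.6, 12.8, 17 and 15.3%, and for peaks 100 to 300 bp downstream the shares were 13.5, 14.6, 27.8 and 24.6%. The shares come from RefSeq start sites, leave out chromosome 18 and are minimums. Within 500 bp they were 3.39, 3.75, 3.67 and 2.75%. Each peak has 1 gene in the lists. A peak given to the opposite gene counts as a downstream peak of that gene, so the difference between upstream and downstream shares can come from the assignment alone. The middle of the upstream peak had passed the opposite TSS in 30, 37, 40 and 24 of these cases.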

How the data were processed

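H2A.Z ChIP-seq of mouse nucleus accumbens was deposited as 4 annotated peak lists, 1 for each of 4 conditions of 3 samples. Reads were processed with cutadapt, HISAT, SAMtools and MACS2 on mm10, per the submitters' processing notes. Tool versions, thresholds, the control and any pooling of samples were not given in the sources used here. For each peak the authors deposited a fold enrichment (a ratio over background) and a q-value, per the file headers, with a gene, transcript and distance. The distance equalled the strand-oriented peak middle minus the TSS within 0.5 bp in every list. Starts are printed as deposited, and no header says if counting begins at 0 or 1.

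The upstream peaks outside chromosomes 1 to 19 (36 and 61 for SS and SC, 3 and 2 for CS and CC) were left out. Shares carry 95% exact binomial (Clopper-Pearson) intervals. A peak counted as covered when its middle lay in an SS peak, and overlap meant at least 1 bp. A second peak was one of the same TSS with its middle up to 1000 bp downstream. Sequences and opposite-strand start sites came from RefSeq tables of GRCm38.p6. Of the genes with an upstream peak, 70.1, 70.5, 77.2 and 76.1% (SS, SC, CS, CC) had their symbol in the promoter table. Python 3.11.15, pandas 2.3.3, numpy 2.4.6, scipy 1.17.1 and matplotlib 3.10.9 were used. The counting was tested on simulated data with planted peaks.

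Named genes were the 8 strongest per list, the 10 strongest in SS with an upstream peak in all 4 lists, the genes with a pair in CS and CC, the 5 strongest CS and CC peaks without an SS peak, the 2 strongest of each gene list in CS (in SS where CS had none) and the peaks nearest the edges of the window. Clone names were skipped. Other members of the gene lists are named to complete a count. The members and the 23 gene lists were chosen with earlier results of these data known. The result of 1 gene list is not reported here. No column held samples outside the series.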

Additional observations from a re-analysis of the deposited data

How the results depend on the processing

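Of 111 values under alternative settings, 46 stayed inside the 95% interval of the value given above, and 65 did not. These are values of single lists, so an order between lists can turn: among the 4670 strongest peaks of each list, the same-TSS second peak was lower in SS and SC than in CS and CC, opposite to the full lists, and the upstream share was higher in SS than in SC. With the window narrowed to 250 to 450 bp, the upstream shares of promoter peaks were 4.86 and 5.36% for SS and SC and 18.1 and 17.1% for CS and CC, the same-TSS second peak in SC 9.41%, the genes shared by SS and SC 42.0% of SS and 40.4% of SC, those shared by CS and CC 21.4% of CS and 29.7% of CC, and in SS and SC the median widths 628 and 598 bp and the median folds 4.11 and 4.25. With peaks of −log10 q of at least 5, the upstream shares were 29.7% in CS and 27.0% in CC, the second peak in CS 2.43%, the opposite-strand TSS in CS 7.46%, the shared genes 12.8% of CS and 17.1% of CC, the median widths 140 and 134 bp and the median folds 5.69 and 5.95. With every list kept to its 4670 strongest peaks, the upstream shares were 3.42% in SS and 3.26% in SC, the second peak 0% in SS, 0% in SC and 3.57% in CS, the share covered by SS peaks 79.6% for SC, 31.2% for CS and 29.1% for CC (fewer SS peaks can cover), the opposite-strand TSS 6.94% in SS and 7.41% in SC, the shared genes 53.5% of SC in SS and 28.8% of CC in CS, the median widths 1137, 950 and 122 bp in SS, SC and CS and the median folds 9.24, 11.6 and 4.95. A second peak up to 500 bp downstream was found in 5.59% of SS, and one of the same gene name in 34.4, 35.4, 17.8 and 16.2% of SS, SC, CS and CC. Coverage by SS was 88.2% in SC and 97.8% in CS for an overlap of 1 bp, and 26.8, 93.2 and 93.4% in SC, CS and CC for the whole peak. An opposite-strand TSS within 500 bp was found in 3.39, 3.75, 3.67 and 2.75%. Upstream peaks that overlapped gave 22.3% of CS and 30.7% of CC as shared. Both alternatives chosen after seeing the data also moved their values: the second peak of any gene by position (32.3, 35.0, 19 and 16.8%), and shared genes among those with a promoter peak in both lists (54.9 and 52.6% of SS and SC, 59.0 and 60.1% of CS and CC). The causes of these shifts were not tested. No paired analysis was possible because the lists hold no values per sample, and for the same reason no sample could be left out. Depth per sample was not analysed here.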
